A study of Xenopus laevis with 3 samples.

Results

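Neurofilaments, vimentin and class III β-tubulin are cytoskeletal genes that are best known from neurons and mesenchymal cells. Here 8 features of the *Xenopus laevis* annotation were followed through the juvenile ovary: *nefm.L*, *nefm.S*, *nefl.L*, *nefl.S*, *vim.L*, *vim.S*, *tubb3.L* and *tubb3.S*. Their identifiers in the tables are XBXL10_1g13623, XBXL10_1g15369, XBXL10_1g13624, XBXL10_1g15368, XBXL10_1g26898, XBXL10_1g28819, XBXL10_1g18724 and XBXL10_1g21279, in the same order. They were chosen by name, and all 8 were found among the 44454 named features of the count tables. *X. laevis* is an allotetraploid frog, and .L and .S mark the 2 homeologs of a gene, which lie on the long and the short chromosome of each pair. The genes were picked because they were known to be high in a cluster of germline stem cells (GSCs) in these libraries, so their levels by cluster and their co-detection with *piwil4.S* are given as a description with no test.

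The data came from 3 biological replicates of ovary tissue of untreated wild-type juveniles at Nieuwkoop-Faber stages 62 to 66, around the end of metamorphosis, with 1 single-cell 3′ RNA-seq library for each. They are called ovaries 1, 2 and 3, and the labels do not say how many animals each library holds. About 10000 cells were loaded per library, and all samples used here share this genotype, treatment and stage range. The 3 ovaries together gave 19253 barcodes, of which 5614, 5353 and 6180 were kept in ovaries 1, 2 and 3, with medians of 2630, 4939 and 1740 unique molecular identifiers (UMIs) per cell. The labels call the cells germline cells, but markers placed 8170 of the 17147 kept cells in 11 germ cell clusters, which had *ddx4* and *dazl*, and 8977 in 15 somatic clusters. The germ cell share was 18.3%, 78.1% and 47.9% in ovaries 1, 2 and 3. The libraries shared 34 barcodes among all cells and 24 among those kept.

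Neurofilaments are intermediate filaments of axons. They are built from light, medium and heavy subunits, of which *nefl* encodes the light and *nefm* the medium chain. Vimentin, encoded by *vim*, is the usual intermediate filament of mesenchymal, endothelial and blood cells. *tubb3* encodes class III β-tubulin, a tubulin isotype used as a neuronal marker, which enters microtubules together with α-tubulin. *piwil4* encodes a PIWI protein of the piRNA pathway, which silences transposons in the germline.

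A cluster of 165 cells, with 51, 76 and 38 cells in ovaries 1, 2 and 3, carried the GSC markers *piwil4.S*, *chgb.L* and *morc1.S* among its leading genes and is called GSC-like. Its cells had a median of 5305 UMIs, against 3849 in the other germ clusters and 2139 in the somatic clusters. The *piwil4.S* level was 4.57, 4.79 and 3.72 UMIs per 10000 UMIs in the GSC-like cells of ovaries 1, 2 and 3, and averaged 0.0444 in the other germ clusters. A level here is the mean over cells of the UMIs per 10000 UMIs of the cell, and its error is the SD of the ovaries with at least 10 cells in the cluster. The counts are of 3′ ends and are not scaled by gene length, so levels of different genes are not ranked against each other. Shares of cells with a UMI also depend on depth, and intervals for them cover counting error only.

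*nefm.S*, the .S homeolog of the medium chain gene, had levels of 2.27, 3.14 and 2.42 in GSC-like cells of ovaries 1, 2 and 3, with a mean of 2.61 ± 0.464 (SD, n = 3). Its mean level was 0.00922 in the other germ clusters and 0.000544 in the somatic clusters. *nefm.L* reached 0.941, 1.12 and 0.570 in GSC-like cells. Both homeologs of the medium chain were therefore high in the GSC-like cells of all 3 ovaries, and the levels in all other cells lay far below the lowest of these values. *nefl.L*, of the light chain, had levels of 2.57, 2.37 and 1.47 in GSC-like cells, with a mean of 0.00994 in the other germ clusters and 0.00305 in the somatic clusters. *nefl.S* had 0.801, 1.07 and 0.254 in GSC-like cells. Ovary 3 was the lowest for *nefm.L*, *nefl.L* and *nefl.S*, but not for *nefm.S*.

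**Figure D1:**
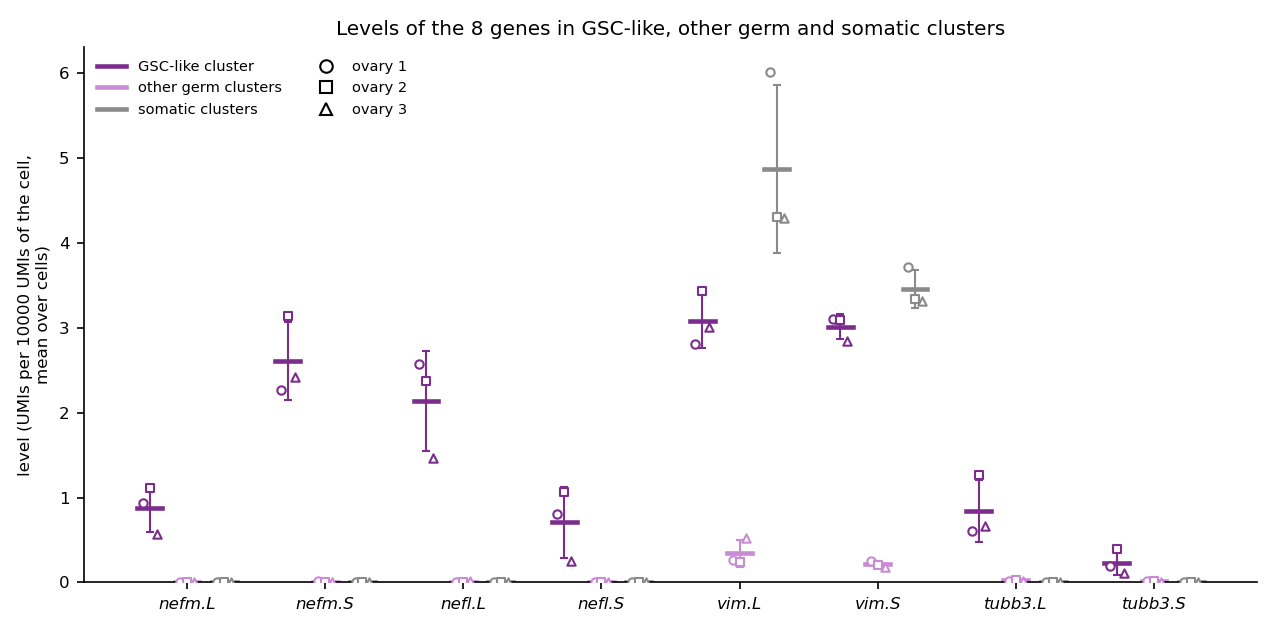
Levels of the 8 genes (UMIs per 10000 UMIs of the cell, mean over cells) in the GSC-like cluster, the other germ clusters and the somatic clusters; points are ovaries, horizontal lines the mean of 3 ovaries and vertical lines 1 SD. The 4 neurofilament genes and both *tubb3* genes lie near 0 outside the GSC-like cluster, while *vim.L* and *vim.S* are present in somatic cells at 4.87 and 3.46.

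At least 1 UMI of *nefm.S* was found in 64.7% and 59.2% of the GSC-like cells of ovaries 1 and 2 and in 19 of the 38 cells of ovary 3. *nefl.L* was found in 62.7% and 36.8% of those of ovaries 1 and 3 and in 38 of the 76 cells of ovary 2. Those for *nefm.L* were 37.3%, 34.2% and 13.2%, and those for *nefl.S* 37.3%, 27.6% and 13.2%. When cells were thinned to 2000 UMIs, which left 45, 69 and 36 GSC-like cells, 55.6%, 58.0% and 55.6% of them had a UMI of any neurofilament gene. *nefm.S* then gave 35.6%, 31.9% and 36.1%, so ovary 3 was no longer the lowest for this gene. For *nefm.L* it stayed the lowest, with 5.56%, against 11.1% in ovary 1 and 21.7% in ovary 2.

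Cells with several neurofilament UMIs were nearly confined to the GSC-like cluster. Of 106 kept cells with 2 or more UMIs of the 4 genes together, 103 were GSC-like, 35, 50 and 18 of them in ovaries 1, 2 and 3. The other 3 were epithelial-like cells, 1 in each ovary, with 17647, 10895 and 9732 UMIs and 23, 36 and 6 UMIs of *ddx4* and *dazl*, and 2 of these 3 were among the 5% of cells with the highest doublet scores of their library. All 8 genes except the *tubb3* pair were among the variable genes that the clusters were built from. When all 8 genes were left out of the variable genes, the cluster with the highest *piwil4.S* held 160 cells, of which 157 were the same cells, and it took 105 of the 106.

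A single neurofilament UMI was seen in 85 cells, 20 of them GSC-like and 53 in the other germ clusters. Among the latter, *nefl.L* made up most of the signal with 30 UMIs in 30 cells, and 12 of these UMIs were in leptotene-zygotene-like cells, cells of early meiotic prophase. The share of other germ cells with a *nefl.L* UMI was 0.375%, against 50.9% in GSC-like cells. In the somatic clusters it was 0.134%. None of the 100 red blood cell-like cells, with a median of 1536.5 UMIs, had a UMI of any neurofilament or *tubb3* gene, which allows a share of up to 3.00%. By cluster, *nefl.L* was found in 0.871% of leptotene-zygotene-like cells, with a median of 1952.5 UMIs, and in 0.115% and none of the early diplotene-like G4 and G7 cells, with medians of 20391.5 and 21392.5 UMIs. The 978 other germ cells of ovary 1 held none, while its GSC-like cells held 71 UMIs. The part of free RNA in these low shares was not tested.

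*tubb3* had a wider range among germ cells. *tubb3.L* levels were 0.605, 1.27 and 0.667 in GSC-like cells of ovaries 1, 2 and 3, with shares of 37.3%, 48.7% and 26.3% of the cells. The mean level in the other germ clusters was 0.0241 ± 0.00536 (SD, n = 3), and that in the somatic clusters 0.00352. GSC-like cells held 83 of the 235 *tubb3.L* UMIs, other germ clusters 141 and somatic cells 11. These were mostly single UMIs, 141 in 135 of 8005 cells, and the part of free RNA in them was not tested. The pre-meiotic S-like cluster was named for 1 listed gene, *rec8.L*, among its leading genes. Its mean log2 excess was only 1.34 for the pre-meiotic S markers and 1.03 for the GSC markers, so it may hold other stages. By cluster, pre-meiotic S-like cells had 0.0725 ± 0.0350 (SD, n = 3) and pachytene-like cells 0.0314 ± 0.0191. Early diplotene-like cells of cluster G4 had 0.0553 ± 0.0737, where ovary 1 gave 0.140 from 1 UMI in 16 cells and ovaries 2 and 3 gave 0.0119 and 0.0136. These neighbours in the order did not differ beyond their spread.

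*tubb3.S* levels were 0.194, 0.390 and 0.110 in GSC-like cells, against a mean of 0.0133 in the other germ clusters and 0.00170 in the somatic clusters. Here the GSC-like cells held 26 of 92 UMIs and the other germ clusters 61. G2/M-like germ cells, those with mitotic markers, came next with 0.0330 ± 0.0125 (SD, n = 3), from 5 UMIs.

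Vimentin followed another pattern, with most of its RNA in somatic cells. In GSC-like cells, *vim.L* levels were 2.81, 3.44 and 3.02 and *vim.S* levels 3.10, 3.09 and 2.84 in ovaries 1, 2 and 3. The other germ clusters averaged 0.344 ± 0.157 for *vim.L* and 0.216 ± 0.0373 for *vim.S* (SD, n = 3 each). No ovary overlapped between the GSC-like and the other germ cells, but how many of all genes had this order was not counted. Vimentin RNA was found in most GSC-like cells, with *vim.L* in 74.5%, 72.4% and 65.8% and *vim.S* in 78.4%, 75.0% and 73.7% of them. GSC-like cells held 1.86% of all *vim.L* and 3.28% of all *vim.S* UMIs, compared with 92.7% of *nefm.L*, 91.1% of *nefm.S*, 78.9% of *nefl.L* and 94.7% of *nefl.S* UMIs.

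Collagen genes of stromal cells were measured beside *vim* in germ cells. RNA of other somatic cells was not measured in this way, and the part of free RNA in the *vim* levels was not tested. *col1a1.S* stood in GSC-like cells at 0.909%, 0.0624% and 0.231% of its level in the largest stromal-like cluster in ovaries 1, 2 and 3. *col1a2.L* stood at 1.68%, 0.484% and 0.749%, and *col3a1.S* at 0.375%, 0% and 0%. *vim.L* stood at 33.6%, 33.9% and 41.1% and *vim.S* at 47.0%, 33.8% and 49.6% of the level in the same stromal-like cells. In other germ clusters *vim.L* stood at between 0 and 15.04% of the stromal-like level, highest in ovary 3 of the unnamed cluster G10 and 12.8% in ovary 3 of the early diplotene-like G7 cells, and *vim.S* at no more than 9.25%.

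Germ-gated cells, which had at least 2 UMIs of *ddx4* and *dazl* and at least 5 per 10000, were compared with soma-gated cells, which had none and at least 2 UMIs of somatic markers. This gate uses neither clusters nor the 8 genes. UMIs were summed per ovary, and of 22162 genes tested, 48.3% were called at an adjusted p of 0.05 with edgeR's quasi-likelihood test, and 26.5% of all genes tested were called lower in germ-gated cells. *vim.L* had 91.4, 38.0 and 74.7 CPM, the UMIs of the gene scaled to the total UMIs of the sum, in germ-gated sums of ovaries 1, 2 and 3, against 619.7, 556.7 and 427.9 in soma-gated sums. *vim.S* had 58.6, 19.3 and 27.1 in germ-gated sums, against 382.7, 414.5 and 308.5 in soma-gated sums. Every germ-gated sum lay below every soma-gated one for both genes, but how many of all genes had this order was not counted. *vim.L* fell by a fitted 3.60 on the log2 scale (SE 0.400, adjusted p = 0.000406) and *vim.S* by 4.06 (SE 0.420, adjusted p = 0.000347). These fits, 12.1 and 16.6-fold, include edgeR's scaling between sums (TMM). The CPM leave this scaling out, so their ratios differ from the fitted folds. The direction was the same in 3 of 3 ovaries. Without the germ-gated cells that had a *piwil4.S* UMI, an alternative chosen after seeing the data, the log2 differences were -3.65 and -4.34. Over 13 alternatives, *vim.L* ranged between -3.88 and -3.34 and *vim.S* between -4.42 and -3.57, with an adjusted p of at most 0.00592 and 0.00603.

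*nefm.L*, *nefl.S* and *tubb3.S* did not pass the filter on low counts in this comparison, and *nefm.S*, *nefl.L* and *tubb3.L* passed it through the germ-gated sums. *tubb3.L* had 42, 144 and 43 UMIs in the germ-gated sums of ovaries 1, 2 and 3, against 1, 0 and 1 in the soma-gated sums. *nefm.S* had 91, 113 and 52 UMIs in germ-gated sums, against 1, 0 and 0 in soma-gated sums. Since the 6 neurofilament and *tubb3* genes were chosen for being high in one kind of germ cell, these counts are a description.

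Among somatic clusters, *vim.L* was highest in the endothelial-like cluster S20, which carried *vwf*, *lyve1* and *mrc1*, with levels of 21.4, 31.2 and 17.1 in ovaries 1, 2 and 3. The second endothelial-like cluster, S16, with *cldn5* and *apln*, had 14.7, 15.3 and 12.5, and smooth muscle or pericyte-like cells had 14.3 in the only ovary with 10 cells. The largest stromal-like cluster had 8.27 ± 1.68 (SD, n = 3). Epithelial-like cells, which express keratins, had 1.92 ± 0.216 in the larger cluster and 1.63 ± 0.144 in the smaller. Both endothelial-like clusters lay above the stromal-like one in every ovary, and S20 lay above S16 in every ovary, with an SD of 7.24 in S20.

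*vim.S* had a different order. The smooth muscle or pericyte-like cells stood at 16.6 in ovary 1, and the leukocyte-like cluster S19, with the neutrophil granule genes *mpo* and *prtn3*, at 8.46 and 11.02 in ovaries 2 and 3. The largest stromal-like cluster had 7.05 ± 1.65, red blood cell-like cells 6.66 ± 0.968 and leukocyte-like S15 cells, with the macrophage gene *c1qa*, 6.40 ± 4.03 (SD, n = 3 each), which did not differ beyond their spread. Endothelial-like S20 had 0.302, 1.80 and 1.72, and the larger epithelial-like cluster 0.428 ± 0.0890. The endothelial-like clusters were thus high for *vim.L* and low to intermediate for *vim.S*.

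**Figure D2:**
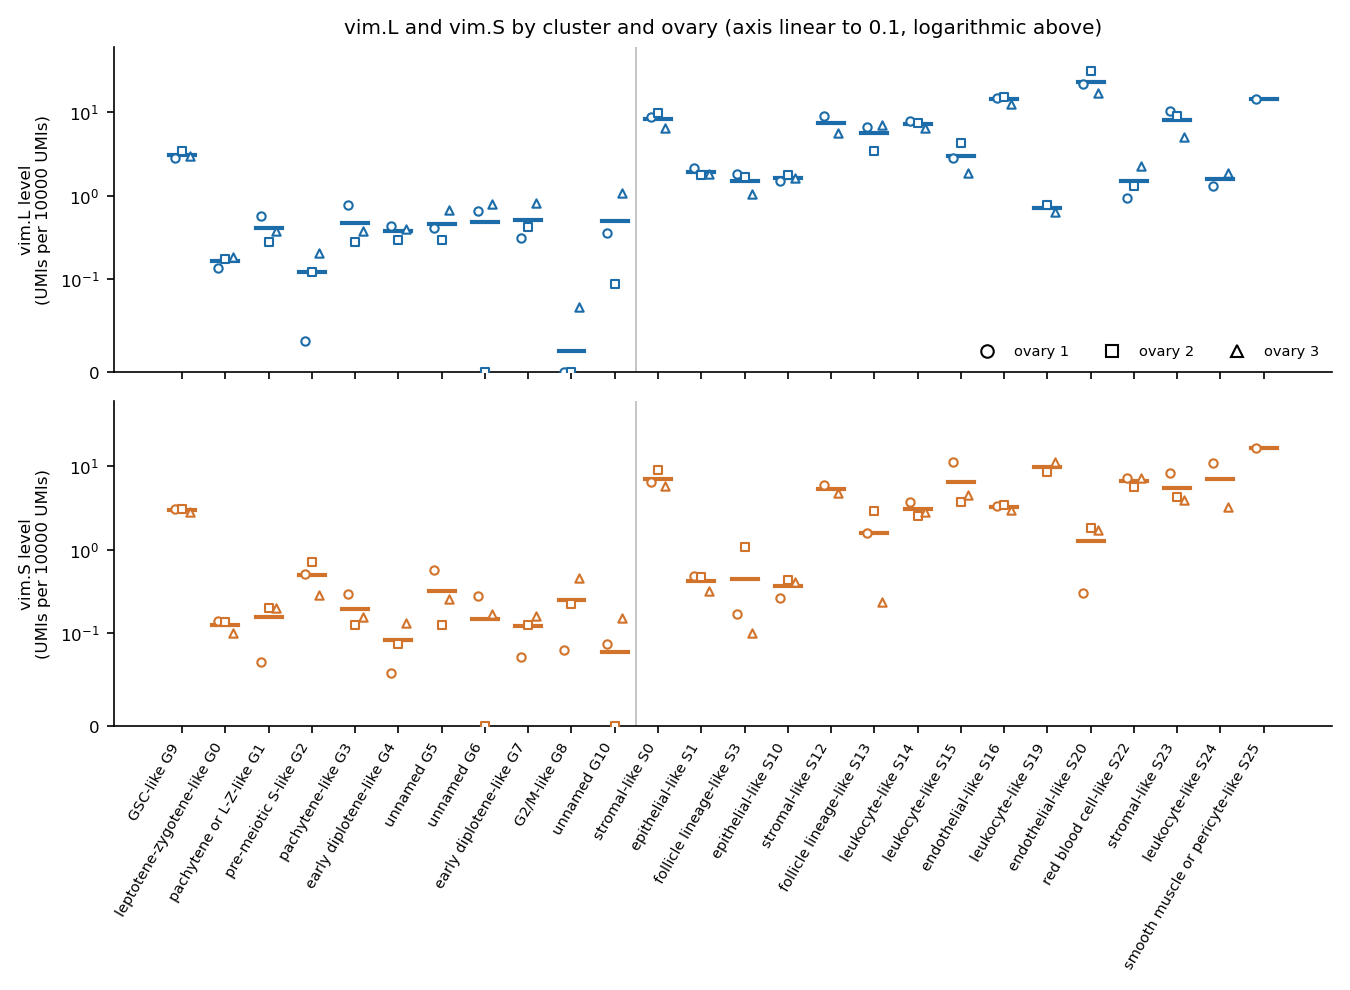
Levels of *vim.L* (top) and *vim.S* (bottom) in UMIs per 10000 UMIs for the germ clusters (left of the line, GSC-like first) and the somatic clusters (right of it); points are ovaries with at least 10 cells and lines their mean, on an axis that is linear up to 0.1 and logarithmic above. GSC-like cells lie near 3.09 for *vim.L* and 3.01 for *vim.S*, above all other germ clusters for both genes.

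In other germ cells, the level of *vim* was low and its homeologs differed between the clusters. Pre-meiotic S-like cells had more *vim.S*, with 0.517, 0.704 and 0.285 in ovaries 1, 2 and 3, than *vim.L*, with 0.0334, 0.124 and 0.209. G2/M-like cells had 0.253 ± 0.188 of *vim.S* and 0.0234 ± 0.0405 of *vim.L* (SD, n = 3 each), the latter from 1 UMI. In early diplotene-like G7 cells, *vim.L* had 0.309, 0.423 and 0.825, and *vim.S* 0.0747, 0.127 and 0.162. The name of G7 is not certain. Its mean log2 excess was 2.91 for the early diplotene markers and 2.59 for those of stage 1 follicle oocytes. *zp4.S* was among its leading genes, and *zp4* is the study's marker of stage 1 follicles. Pachytene-like cells had 0.476 ± 0.257 of *vim.L* and 0.193 ± 0.0888 of *vim.S*. The G2/M-like and pre-meiotic S-like clusters thus had mainly *vim.S*, and the pachytene-like and early diplotene-like clusters mainly *vim.L*. The part of free RNA of somatic cells in these low levels was not tested.

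The balance of homeologs is the share of .L UMIs among the .L and .S UMIs of a gene. Reads that match both homeologs could have been split or dropped in the counting, so a share in one cell type is less certain than its difference between cell types. With 3 ovaries, an exact paired permutation test could not go below p = 0.25, and none was run. In GSC-like cells, *vim* was balanced, with *vim.L* shares of 50.4%, 51.9% and 47.6% in ovaries 1, 2 and 3, and exact binomial 95% intervals of 44.1 to 56.7% in ovary 1, 45.3 to 58.5% in ovary 2 and 37.6 to 57.6% in ovary 3. The pre-meiotic S-like cells had 7.14%, 13.1% and 31.4%, with upper limits of 14.9%, 20.4% and 49.3%. Early diplotene-like G4 cells had 78.6%, 77.6% and 79.1%, and G7 cells 82.0%, 78.1% and 84.4%. The 3 ovaries of the pre-meiotic S-like, GSC-like and early diplotene-like G7 cells did not overlap. These clusters were picked with the shares known, and how many of all homeolog pairs differ in this way was not counted.

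Somatic cells covered almost the whole range. Endothelial-like S20 had 98.1%, 92.6% and 88.1% of *vim* UMIs from *vim.L*, leukocyte-like S19 had 3 of 12, 4 of 64 and 3 of 40 UMIs, and red blood cell-like cells had 13.3%, 23.1% and 29.2%. Stromal-like cells of the largest cluster had 58.7%, 51.9% and 52.3%, close to GSC-like cells. The larger epithelial-like cluster had 81.0%, 77.7% and 83.7%, close to early diplotene-like G4 and G7 cells. Of 22 clusters with at least 10 *vim* UMIs in each ovary, *vim.L* was the more abundant in all 3 ovaries in 13, *vim.S* in 3, and the ovaries differed in 6. The intervals of the endothelial-like S20 and the red blood cell-like cells did not overlap in any ovary, which was not counted for other homeolog pairs. These intervals treat UMIs as independent, although many come from the same cells, and each of these clusters had 10 cells in ovary 2.

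**Figure D3:**
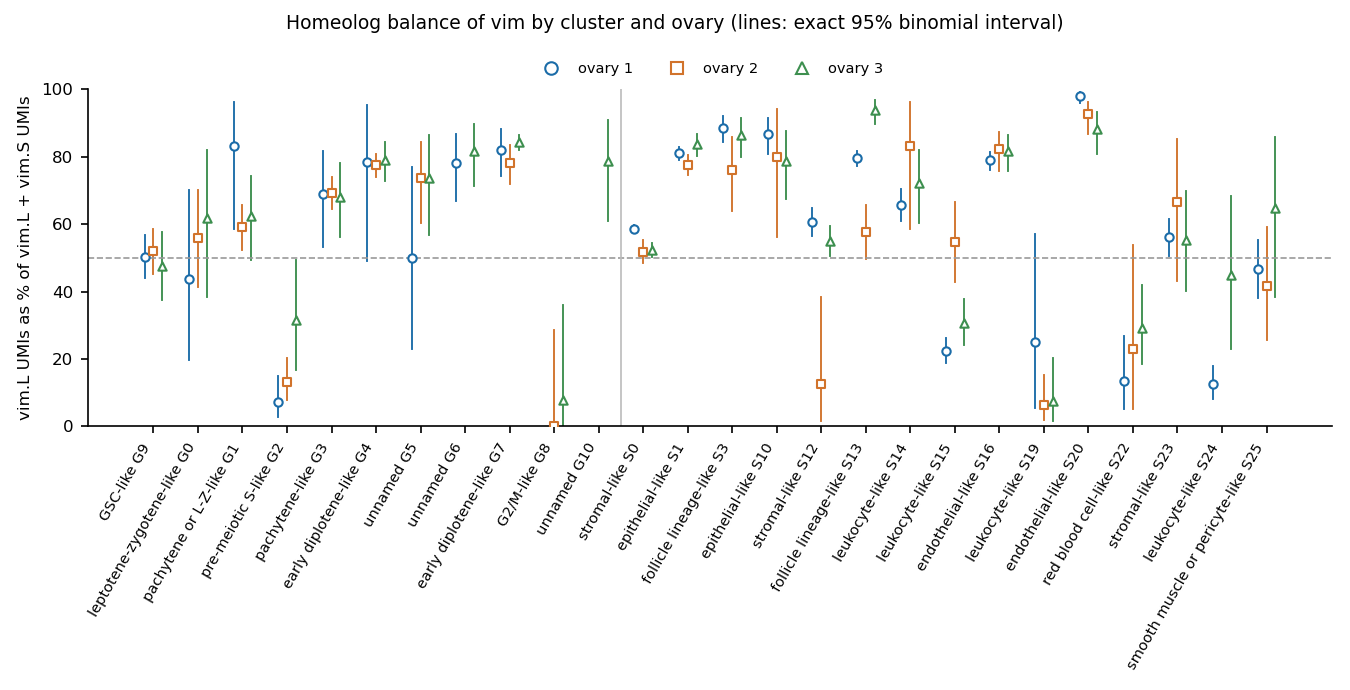
Share of *vim.L* among *vim.L* and *vim.S* UMIs, in percent, by cluster and ovary, for ovaries with at least 10 such UMIs; vertical lines are exact binomial 95% intervals and the dashed line is an equal share. GSC-like cells lie at 47.6 to 51.9%, pre-meiotic S-like cells at 7.14 to 31.4% and early diplotene-like G7 cells at 78.1 to 84.4%.

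The neurofilament genes were unequal in GSC-like cells, and in opposite ways. The medium chain came mainly from the .S copy, with *nefm.L* shares of 26.4%, 26.1% and 15.1% in ovaries 1, 2 and 3. The light chain came mainly from the .L copy, with *nefl.L* shares of 67.6%, 66.0% and 83.9%. In RefSeq's gene table of the v10.1 assembly *nefm.L* and *nefl.L* are neighbouring genes, and so are *nefl.S* and *nefm.S*. The homeolog with more UMIs thus differed between these neighbours. The part of the counting of shared reads and of 3′ ends in these shares was not tested. *tubb3.L* took 70.6%, 75.4% and 92.9% of *tubb3* UMIs in GSC-like cells, and 70.8%, 68.1% and 75.0% in the other germ clusters. For *nefl*, 30 of the 31 UMIs in the other germ clusters were *nefl.L*, and none of the 31 came from ovary 1. The *nefl.L* share there was 94.1% (exact 95% interval 71.3 to 99.9%) in ovary 2 and 100% (76.8 to 100%) in ovary 3. In GSC-like cells it was 66.0% (55.7 to 75.3%) in ovary 2 and 83.9% (66.3 to 94.5%) in ovary 3. The intervals overlapped in both ovaries.

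Within the GSC-like cluster, the genes were found together in many cells. Of 165 cells, 79 had both a medium and a light chain UMI, 28 a medium chain only, 16 a light chain only and 42 neither. Of 123 cells with a neurofilament UMI, 111 also had a *vim* UMI and 62 a *tubb3* UMI. Of the 42 cells without one, 31 had a *vim* UMI and 18 a *tubb3* UMI. The *vim* share was lower with a neurofilament UMI in ovary 1 (87.5% against 90.9%) but higher in ovaries 2 and 3. The *tubb3* share was lower in ovary 3 (28.0% against 30.8%) but higher in ovaries 1 and 2. These shares were not compared at equal depth. The median number of the 8 genes found per cell was 5, 4 and 3 in ovaries 1, 2 and 3, and 7 of the 165 cells had none. By contrast, in the other germ clusters none of 8005 cells had 3 or more of the 6 neurofilament and *tubb3* genes, against 67 of 165 GSC-like cells.

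Co-detection with *piwil4.S* within the cluster is described here for each gene family, with no test of a difference between families. A *piwil4.S* UMI was found in 130 of 165 GSC-like cells, and 101 of these 130 (77.7%) also had a neurofilament UMI, compared with 22 of the 35 (62.9%) GSC-like cells without one. Per ovary the shares in *piwil4.S*-positive cells were 79.5%, 78.0% and 74.1%, against 71.4%, 70.6% and 45.5% in *piwil4.S*-negative cells. The 35 negative cells are split over the 3 ovaries, so the latter shares rest on few cells and have a wide counting error. The *piwil4.S*-positive cells were also the deeper ones, with a median of 5709.5 UMIs against 3926. After thinning to 2000 UMIs, which left 150 cells and 77 of them with a *piwil4.S* UMI, the shares were 68.4%, 65.8% and 65.0% in positive cells, against 46.2%, 48.4% and 43.8% in negative cells, so positive cells remained the higher in each ovary. Each of these thinned shares rests on 16 to 38 cells. Vimentin and *tubb3* did not keep such an order. Any *vim* UMI was found in 91.5% of positive and 65.7% of negative cells, but after thinning in 14 of 19, 33 of 38 and 10 of 20 positive cells of ovaries 1, 2 and 3, against 21 of 26, 17 of 31 and 11 of 16 negative cells. Any *tubb3* UMI was found in 50.8% of positive cells and in 14 of 35 negative cells, and after thinning in 26.0% of positive and 27.4% of negative cells. Seen from the other side, 82.1% of the GSC-like cells with a neurofilament UMI also had a *piwil4.S* UMI.

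Outside the GSC-like cluster, *piwil4.S* came with a higher share of cells with *vim.S*, not of cells with *vim.L*, and few of its cells had neurofilaments. In the other germ clusters, 87 cells had a *piwil4.S* UMI, 56 of them in the pre-meiotic S-like cluster, for which the GSC markers scored second. Of all cells of that cluster, 14.7% had *vim.S* and 2.87% *vim.L*. Over all germ clusters except the GSC-like one, with that cluster included, the shares were 9.93% and 17.98%. The part of this uneven spread over clusters in the *vim* shares below was not tested. Only 2 of these 87 cells (2.30%) had a neurofilament UMI, against 51 of 7918 (0.644%) of the cells without *piwil4.S*. *vim.S* was found in 56.7%, 43.3% and 29.6% of the *piwil4.S*-positive cells of ovaries 1, 2 and 3, against 9.28%, 10.6% and 8.25% of the negative ones, while *vim.L* was found in 14.9% of positive and 18.01% of negative cells of all ovaries together. The positive cells were deeper, with medians of 6836 and 3808.5 UMIs. Thinned to 2000 UMIs, *vim.S* was still found in 9 of 34 positive cells (26.5%), against 202 of 5555 negative cells (3.64%). For *tubb3.L* the unthinned shares were 12 of 87 (13.8%) and 123 of 7918 (1.55%), but after thinning none of 34 positive cells had a UMI, against 38 of 5555 negative cells.

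**Figure D4:**
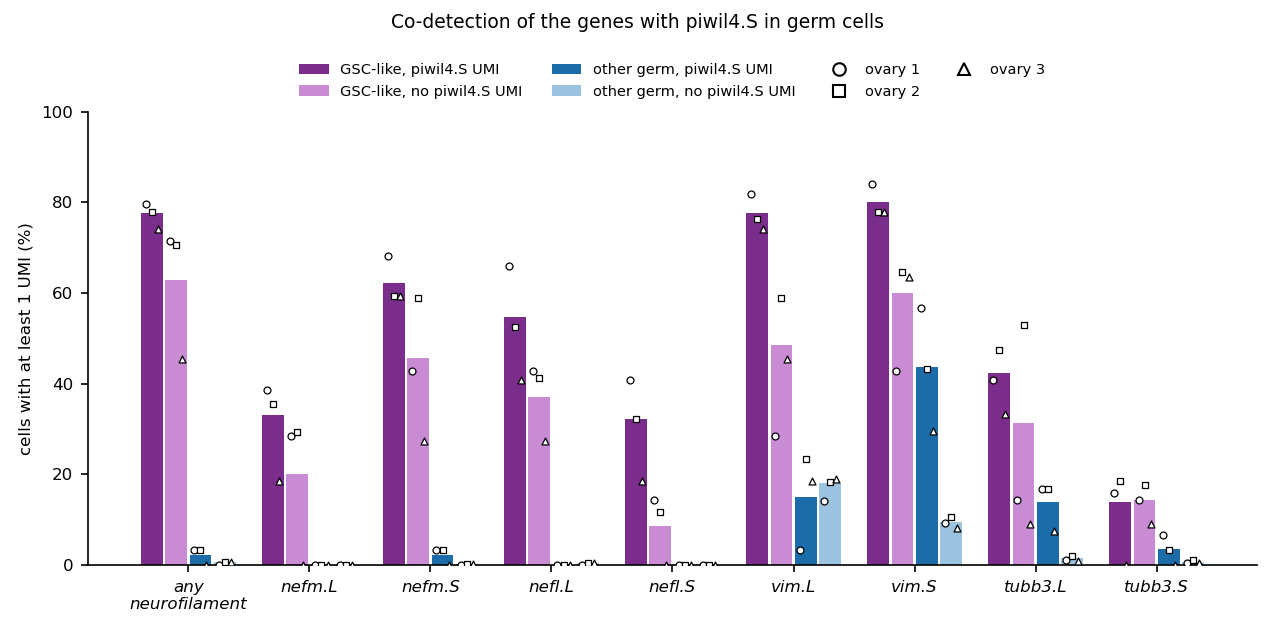
Percent of germ cells with at least 1 UMI of each gene, for cells with and without a *piwil4.S* UMI in the GSC-like cluster and in the other germ clusters, without thinning; bars are all cells together and points the 3 ovaries. Neurofilament UMIs are found in 77.7% of *piwil4.S*-positive GSC-like cells but in 2.30% of *piwil4.S*-positive cells of other germ clusters, where *vim.S* is still found in 43.7%.

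Germ-gated cells were also split by *piwil4.S* alone, without clusters, into 70, 89 and 52 positive cells and 995, 4256 and 2740 negative cells in ovaries 1, 2 and 3. Of the 211 positive cells, 125 were GSC-like and 55 pre-meiotic S-like. *nefm.S* had 129.8, 152.3 and 106.5 CPM in positive sums, against 1.03, 0.651 and 0.570 in negative sums. *nefl.L* had 97.3, 88.3 and 57.1 in positive sums, against 0.586, 0.807 and 0.985 in negative sums. *tubb3.L* had 44.8, 74.4 and 39.0, against 1.90, 2.63 and 1.45. For each of these genes, every positive sum lay above every negative one, but how many of all genes had this order was not counted. *vim.S* had 236.4, 202.6 and 150.6 in positive sums, against 41.8, 16.6 and 24.6, and *vim.L* 185.4, 211.2 and 161.0, against 82.5, 35.4 and 73.0. The fitted log2 differences, given without a test, were 7.10 for *nefm.S*, 6.94 for *nefm.L*, 6.17 for *nefl.L*, 7.98 for *nefl.S*, 4.29 for *tubb3.L*, 2.44 for *vim.S* and 1.14 for *vim.L*. *nefl.S* had 3, 3 and 0 UMIs in the negative sums, so its fitted value depends on the prior count. *tubb3.S* did not pass the filter on low counts, with 10, 13 and 0 UMIs in positive sums and 7, 46 and 10 in negative sums.

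The same split was used to test other genes of the cytoskeleton and of neurons, taken from lists that leave out the 8 genes. These lists were chosen with earlier results of these data known. The study had reported neuronal genes, among them a diencephalon/mesencephalon homeobox gene, as enriched in its GSC cluster. A rise in the neuronal lists was therefore in part known in advance and is no independent support. Over all 18889 genes tested with edgeR's quasi-likelihood test, 1402 were called higher in positive cells (7.42%) and 499 lower (2.64%), which is 10.1% in all. This count varied: it was 5758 with the ovary as a replicate block, 2697 higher and 3061 lower, and 280, 169 and 305 without ovary 1, 2 and 3. Of 43 neuronal microtubule-associated genes tested, out of 62 features of the list, 15 rose and 1 fell, 37.2% of those tested. Their median log2 difference was 0.60, against -0.05 over all genes tested. The filter on low counts can pass a gene through the positive sums alone. Without it, 19 of the 62 features rose and 2 fell, while 1721 of 36873 genes rose and 1979 fell. The replicate block gave 19 and 2, and leaving out ovary 1, 2 or 3 left 8, 3 and 6 that rose and none that fell. Thinned to 2000 UMIs, 24 of the list's genes could be tested, of which 5 rose and 1 fell.

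*map2.L* and *map2.S*, which encode a microtubule-associated protein of dendrites, rose by 4.36 (SE 0.440, adjusted p = 0.00154) and 4.03 on the log2 scale. *map2.L* had 46.3, 45.0 and 36.4 CPM in positive sums, against 2.78, 1.33 and 0.933 in negative sums. They were the only 2 of the 13 named genes of the lists that were still called when any ovary was left out. *map2.S* had 69.5, 69.2 and 28.6 in positive sums, against 2.49, 2.68 and 2.44. *kif5a.L*, of a kinesin motor that carries axonal cargo in mammals, rose by 3.11, *map1b.L*, of a microtubule-associated protein of growing axons, by 2.62, and *map7d2.L* by 1.90. In positive sums *kif5a.L* had 26.3 and 41.5 CPM in ovaries 1 and 2 but 5.19 in ovary 3. *mapre1.L*, of a protein that tracks growing microtubule ends, fell by 1.34 (adjusted p = 0.0198), with 51.0, 79.6 and 54.5 in positive sums against 107.2, 126.9 and 119.8. Here and for the lists below, fitted differences include TMM scaling and the CPM do not. The fitted fall of *mapre1.L* is therefore larger than that of its CPM.

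Of 22 neuronal RNA and transcription regulators tested, 7 rose and none fell, 31.8% of those tested against 10.1% of all genes tested. The list has 45 features, and without the filter on low counts 8 of the 45 rose and 2 fell. The block gave 9 and 2, and leaving out ovary 1, 2 or 3 left 4, 3 and 7 that rose. Among them, *celf5.S*, which encodes an RNA-binding protein, rose by 1.80 (SE 0.481, adjusted p = 0.0460). It had 10.8, 13.8 and 7.79 CPM in positive sums, against 1.61, 2.86 and 2.38. The positive sums held 647336, 577623 and 385020 UMIs in ovaries 1, 2 and 3, so these values rest on few UMIs of the gene. This list gave no rise after thinning to 2000 UMIs, where 7 of its genes could be tested and 1 fell.

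Other intermediate filament genes, among them lamins, keratins, *ina*, *prph* and *nes*, gave 1 of 21 that rose and none that fell, 4.76% of the list, but 3 that rose and 6 that fell with the ovary as a replicate block. Of 23 other tubulin genes 2 rose and 1 fell, while the block gave 4 and 8, and thinning to 2000 UMIs 3 and 7 of 21. *tuba4b.L* and *tuba1a.S*, both α-tubulin genes, rose by 1.73 and 1.92, and *tuba1c.S*, another α-tubulin gene, fell by 1.15 (SE 0.256, adjusted p = 0.0263). Of 11 filament linker genes 1 rose: *dst.L*, of a linker between filaments and microtubules, by 1.21 (SE 0.262, adjusted p = 0.0241), with 182.3, 185.2 and 122.1 in positive sums against 63.4, 58.4 and 38.7. Of 23 genes for tubulin folding and modification 3 rose and none fell. They included *ttll7.L*, of a tubulin polyglutamylase, which rose by 1.60, and *agtpbp1.S*, of an enzyme that removes glutamates from tubulin, which rose by 1.47. The block gave 3 and 1 for the filament linkers and 3 and 1 for tubulin folding and modification. The shares called in these 4 lists were between 4.76% and 13.04% without the block, beside 10.1% of all genes, and the block called 30.5% of all genes.

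**Figure D5:**
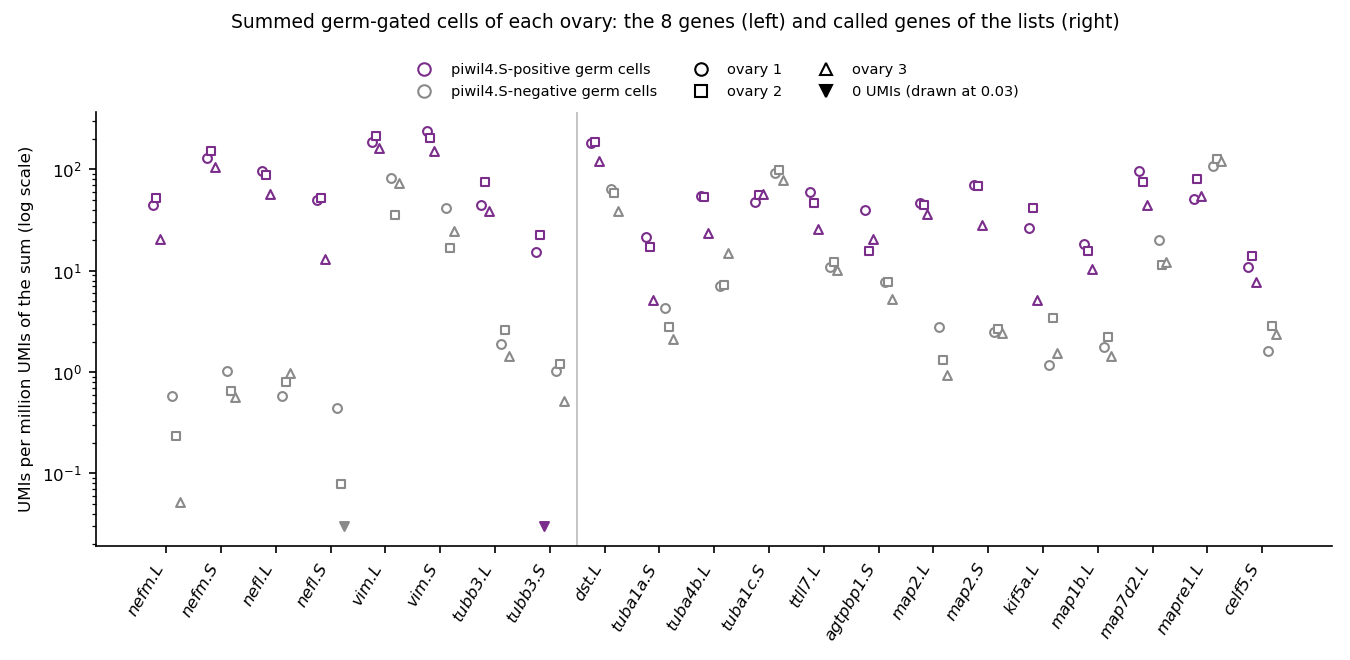
CPM (logarithmic axis) in summed *piwil4.S*-positive and *piwil4.S*-negative germ-gated cells of each ovary for the 8 genes, left of the line, and the 13 named genes of the lists, right of it; filled triangles are sums with no UMI. The *nefm* and *nefl* sums are apart by the widest gaps, and *tuba1c.S* and *mapre1.L* are lower in the positive sums.

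Markers of neurons and of Schwann cells or glia were also measured. Of 15 neuron marker features 2 had no UMI in GSC-like cells, and the summed level of the list was 2.14, 2.28 and 1.84 in GSC-like cells of ovaries 1, 2 and 3, against 0.774, 0.509 and 1.11 in the other germ clusters and 0.780, 0.510 and 0.896 in the somatic clusters. *snap25.L* and *snap25.S*, of a synaptic vesicle fusion protein, stood at 0.768 and 0.459 in GSC-like cells, against 0.0187 and 0.00748 in the other germ clusters. *rbfox3.S*, of a splicing factor of neurons, stood at 0.434 in GSC-like cells, against 0.289 in the other germ clusters and 0.613 in the somatic clusters. *elavl3.L*, *elavl4.L*, *syt1.L*, *syt1.S* and both *th* genes had between 2 and 6 UMIs each. *slc18a2.L* went the other way, at 0.0128 in GSC-like cells from 1 UMI, against 0.331 in the other germ clusters. Of 12 Schwann cell or glia features 4 had no UMI, and the summed level was 1.19, 1.38 and 1.71 in GSC-like cells, against 0.529, 0.914 and 0.729 in the other germ clusters. *erbb3.L* and *erbb3.S*, receptors for neuregulin, stood at 0.347 and 0.251, against 0.0596 and 0.0666 in the other germ clusters, while *sox10.S* and *mpz.L* had 1 UMI each. *mbp.L* and *mbp.S*, with the most UMIs of this list in GSC-like cells (43 and 36), differed less. They stood at 0.436 and 0.340, against 0.240 and 0.307 in the other germ clusters. *foxd3.L* was lower in GSC-like cells, at 0.0111 from 2 UMIs, against 0.0291. These lists are marker lists for other cell types, and the part of such cells in the neurofilament signal was not tested. *ddx4.L*, a germ cell gene, had 2642, 2593 and 2551 CPM in *piwil4.S*-positive sums, against 2034, 2891 and 1891 in negative sums. Both kinds of sums hold only cells gated on *ddx4* and *dazl* UMIs. High *ddx4.L* was therefore fixed in advance and cannot speak to the part of other cell types.

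Over 26 clusters, the genes whose level was most like that of a member were found by Pearson correlation of log2 levels among 19374 genes, each point the mean of the ovaries of 1 cluster. For *nefm.S* these were *nefl.L* (r = 0.98), LOC108702400 (0.97), *chgb.L* (0.97), *aldh1l2.L* (0.93) and *piwil4.S* (0.92). For *nefl.L* they were *chgb.L* (0.99), *nefm.S*, LOC108702400, *scg2.S* (0.95) and *aldh1l2.L*. *chgb* and *scg2* encode granins, proteins of secretory granules. *tubb3.L* was most like *aldh1l2.L* (0.94), LOC108702400, *vstm2b.S*, *chgb.L* and *tmeff2.S*. These correlations rest mostly on 1 cluster. *nefm.S* had 2.61 in GSC-like cells and 0.0427 in the next cluster, *nefl.L* 2.14 and 0.0369, and *tubb3.L* 0.846 and 0.0725. Other genes largely confined to GSC-like cells would also score high. The vimentin genes, which were spread over many clusters, had no gene as close, with *ifi35.L* first for *vim.L* (0.88) and *bcl2l10.L* first for *vim.S* (0.83).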

How the data were processed

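UMI counts per gene and cell were deposited by the authors as whole numbers with no normalization, made with Cell Ranger 8.0.1 per the labels. The genome build is not given in the sources used here, and no coordinates or sequences are printed. Features without a name (0.363 to 0.443% of UMIs) were left out. The members and lists were chosen with earlier results of these data known.

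As in the study's methods, barcodes with under 100 or over 8000 genes, or with more than 1.5% of their UMIs from 13 mitochondrial genes, were removed, with 337 barcodes over the gene limit and 1760 over the mitochondrial one. Seurat 5.3.0 in R 4.3.3 was used for integration and clustering, with 20 dimensions at resolution 1 for all cells and 30 dimensions at resolution 0.5 for germ cells. Clusters were named from marker lists by their mean log2 excess over the other clusters. A name needed an excess of 2.6 or a listed gene among the 10 leading genes, and at most 2 lists within 0.3 of each other. These limits were set after seeing the data, and 3 germ clusters stayed unnamed. For the pre-meiotic S-like cluster and the early diplotene-like G7, the next list lay only just beyond 0.3, so these names are less certain. Cluster numbers begin with G for germ and S for somatic cells.

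Scrublet, as in scanpy 1.11.5, called 48, 6 and 32 doublets. The 6 of ovary 2 are too few for a working call, so no cell was removed and the 5% of cells with the highest scores were left out as an alternative. Germ-gated and soma-gated UMI sums were tested with edgeR 4.0.16 (quasi-likelihood test, TMM, filterByExpr), two-sided, with Benjamini-Hochberg adjustment over all genes. The threshold was 0.05, and adjusted p-values come from edgeR. Fitted differences include the TMM scaling, and the CPM printed beside them do not. The sums compared come from the same ovaries, and their deviations correlated at 0.267 to 0.406 in each ovary for *piwil4.S* and at 0.305 to 0.467 for germ and soma, which pairs them, so the ovary as a replicate block was an alternative. The others were DESeq2 1.42.0, other filters on cells and genes, leaving out each ovary, thinning to 2000 UMIs, other gates, and, for clusters, resolution 1.0 or the 8 genes left out of the variable genes. The tests were also run on simulated counts.

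The named genes are the 8 genes and, of each list, up to 5 that rose and 5 that fell among those called, whose counts averaged 20 or more over the sums and whose direction was the same in 3 of 3 ovaries. Markers of neurons and glia with counts, some of which are not reported here, and the 5 genes most like a member with at least 200 UMIs were added. *tubb3.S* has no entry in the RefSeq table used for neighbours, where the other 7 genes matched.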

Additional observations from a re-analysis of the deposited data

Results flagged for a closer look

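The order of the *vim* homeologs was opposite between cell types in all 3 ovaries, a difference that was not tested. The mean share of *vim.L* was 17.2% in pre-meiotic S-like cells, 12.9% in leukocyte-like S19 cells and 21.9% in red blood cell-like cells, below an equal share in every ovary, whereas 13 other clusters lay above it in every ovary. S19 rests on 9 cells in ovary 1.

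Cells that the filters removed also held UMIs of the 8 genes. The 337 cells with over 8000 genes had 1756 UMIs of *vim.L*, 319 of *vim.S*, 28 of *tubb3.L*, 5 of *tubb3.S* and 5 of *nefl.L*, and no cell among them had 2 UMIs of a neurofilament gene. The 1760 cells with over 1.5% mitochondrial UMIs had 772 UMIs of *vim.L*, 244 of *vim.S*, 10 of *tubb3.L*, 6 of *tubb3.S* and 6 of *nefl.L*.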

How the results depend on the processing

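The number of genes called between *piwil4.S*-positive and negative germ cells was 1901 and depended on the processing. It was 3094 with DESeq2, 3700 without a filter on low counts, 5758 with the ovary as a replicate block, 1195 without an upper limit on genes per cell and 5528 with at least 2 *piwil4.S* UMIs, and leaving out 1 ovary gave between 169 and 305. Of the calls, 1402 of 1901 were higher in edgeR and 1791 of 3094 in DESeq2, but fewer were higher than lower with the block (2697 and 3061), with at least 2 *piwil4.S* UMIs (2149 and 3379), without the low-count filter (1721 and 1979) and after thinning (570 and 813). The causes were not tested. Between germ-gated and soma-gated cells, no alternative moved the count of 10703 by more than 1.5 times, and DESeq2 shifted the median log2 difference of all genes to 0.23 compared with 0.12. The 2 *vim* calls there held under all 13 alternatives each, the block included. The levels of the 8 genes in GSC-like cells and the homeolog shares moved by less than 1 SD of the ovaries under every alternative run. Leaving out 1 ovary cannot move the mean of 3 ovaries by 1 SD, so for those alternatives this was fixed in advance. The other sets of GSC-like cells were nearly the same cells, and thinning was not run on these values. Of the 165 GSC-like cells, 164 were shared at resolution 1.0, 161 without the highest doublet scores and 157 with the 8 genes left out of the variable genes. For the 13 named list genes, no direction reversed, and 44 of their fits fell short of the threshold, among them 11 without ovary 1, 11 without ovary 2 and 10 without ovary 3. GSC-like cells number 38 to 76 per ovary, which limits the shares of the rarer genes.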
